A study of Homo sapiens with 12 samples.

Results

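Surface antigens that are studied as targets of antibodies or engineered T cells in acute myeloid leukaemia were followed at the transcript level in cultured leukaemia cells. The set was a fixed list of 10 genes (CD33, IL3RA, CLEC12A, CD38, CD47, CD34, HAVCR2, CD86, CD96 and CD244), found by symbol among the 19504 named rows of the count table. RNA had been sequenced from transcript ends with the QuantSeq 3′ mRNA kit in MV4-11 and OCI-AML3, established human cell lines derived from acute myeloid leukaemia. MV4-11 depends on FLT3, a growth factor receptor that is constitutively active in this line through an internal tandem duplication. OCI-AML3 has a mutated NPM1 and lacks the FLT3 duplication. The groups were MV4-11 with 5 nM AC220, MV4-11 with DMSO, OCI-AML3 with 5 nM AC220 and OCI-AML3 with DMSO, all at 24 h and with 3 libraries each. AC220 (quizartinib) is a small-molecule FLT3 inhibitor and DMSO is its vehicle, and each disease background is represented here by a single line.

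These proteins belong to different families. CD33 and CLEC12A are lectin receptors of myeloid cells whose cytoplasmic tails carry inhibitory motifs, and CD33 is the antigen of gemtuzumab ozogamicin. IL3RA (CD123) is the ligand-binding chain of the interleukin-3 receptor, CD38 is an ectoenzyme that consumes NAD, and CD34 is a sialomucin of blood progenitors. CD47 is a ligand that restrains phagocytosis through SIRPA on macrophages, and CD86 is a costimulatory ligand for CD28 and CTLA4 on T cells. HAVCR2 (TIM-3), CD96 and CD244 (2B4) are receptors best known from T and natural killer cells that have also been described on leukaemic cells.

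Promoter windows of 300 bases are shown for IL3RA, CD86 and CD244, because these were the members whose rise with AC220 in MV4-11 was called in every alternative analysis. The sequences were taken from RefSeq (GRCh38.p14), run from 250 bases before to 50 bases after the annotated start, and read 5′ to 3′ on the strand of the gene. A promoter entry was matched for 9 of the 10 members, HAVCR2 being the exception. The IL3RA window lies at chrX:1336535-1336834 on the plus strand, in the pseudoautosomal region, and an identical copy lies on chromosome Y. The CD86 window, at the first of its annotated starts, lies at chr3:122055112-122055411 on the plus strand, and the CD244 window lies at chr1:160862838-160863137 on the minus strand. Capitals mark matches, on either strand, to TTCNNNGAA, the palindrome bound by STAT factors, or to GAGGAAG, a core bound by ETS factors such as PU.1.
IL3RA: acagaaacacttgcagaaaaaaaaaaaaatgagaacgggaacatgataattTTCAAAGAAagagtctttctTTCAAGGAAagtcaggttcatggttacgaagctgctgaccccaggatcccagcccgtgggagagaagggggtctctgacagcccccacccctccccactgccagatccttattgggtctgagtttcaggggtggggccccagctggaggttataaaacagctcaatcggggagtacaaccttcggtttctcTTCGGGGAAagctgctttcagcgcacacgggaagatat
CD86: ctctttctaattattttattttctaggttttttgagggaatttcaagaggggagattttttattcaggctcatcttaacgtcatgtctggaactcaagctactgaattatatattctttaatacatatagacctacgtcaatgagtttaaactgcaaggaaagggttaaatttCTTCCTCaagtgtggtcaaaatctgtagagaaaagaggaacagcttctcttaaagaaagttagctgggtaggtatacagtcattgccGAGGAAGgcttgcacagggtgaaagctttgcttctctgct
CD244: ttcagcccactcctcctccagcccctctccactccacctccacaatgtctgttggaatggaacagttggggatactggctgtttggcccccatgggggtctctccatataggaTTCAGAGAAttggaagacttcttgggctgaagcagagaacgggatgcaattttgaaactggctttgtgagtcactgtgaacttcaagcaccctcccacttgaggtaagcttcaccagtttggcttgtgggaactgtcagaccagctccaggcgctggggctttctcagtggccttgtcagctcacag

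The IL3RA window held 3 matches to TTCNNNGAA, at bases 52 to 60, 72 to 80 and 263 to 271, and the CD244 window held 1, at bases 114 to 122. This motif was present in 7.66% of 35114 promoter windows of the same length. The CD86 window held GAGGAAG at bases 261 to 267 and, on the opposite strand, at bases 174 to 180, and this motif was present in 13.6% of windows. The window at the other annotated start of CD86 held no match to any motif searched. CD33 had 2 matches to GAGGAAG, CLEC12A had 1, and CD96 had 1 match to TTCNNNGAA. Neither motif was found in the windows of CD38, CD47 and CD34, and GTAAACA, the core bound by FOXO factors, was found in no window of a matched member, against 3.42% of all windows. No matches overlapped each other in the windows shown. These matches describe the letters of the windows and do not show binding.

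Libraries held 10877198 to 16918761 counts, so that 3 counts, used as the limit of detection, corresponded to 0.174 to 0.279 CPM (counts relative to library size, adjusted by TMM factors). The summed level of 14 myeloid markers was 1116 to 1236 CPM in MV4-11 AC220, 864 to 889 CPM in MV4-11 DMSO, 1327 to 1466 CPM in OCI-AML3 AC220 and 1329 to 1387 CPM in OCI-AML3 DMSO, with no marker at 0 in any group. Of these 14, 9 rose and 3 fell with AC220 in MV4-11, where 31.5% of all genes tested rose and 26.9% fell. FCGR1A, against the direction of the sum, averaged 84.0 ± 13.9 CPM in MV4-11 AC220 and 231 ± 3.82 CPM in MV4-11 DMSO. Of 13 lymphoid markers, 4 were at 0 in MV4-11 AC220, 2 in MV4-11 DMSO and 5 in each OCI-AML3 group, and the T-cell genes CD3E and CD2 were at 0 in every library. Their summed level was 116 to 125 CPM in MV4-11 AC220, 136 to 149 CPM in MV4-11 DMSO, 153 to 165 CPM in OCI-AML3 AC220 and 159 to 168 CPM in OCI-AML3 DMSO. NCAM1 held most of this sum and fell (84.7 ± 0.551 CPM in MV4-11 AC220 and 127 ± 5.58 CPM in MV4-11 DMSO), whereas 3 of the 5 tested lymphoid markers rose. These were NKG7 (25.5 ± 2.77 CPM in MV4-11 AC220 and 12.1 ± 0.805 CPM in MV4-11 DMSO), CD79A (4.06 ± 0.450 CPM in MV4-11 AC220 and 0.521 ± 0.403 CPM in MV4-11 DMSO) and PAX5 (3.89 ± 0.580 CPM in MV4-11 AC220 and 0.886 ± 0.604 CPM in MV4-11 DMSO). The sum of 10 erythroid, stromal and epithelial markers, of which HBB, HBG1 and EPCAM were at 0 throughout, was 14.4 to 23.3 CPM in MV4-11 AC220, 12.1 to 12.8 CPM in MV4-11 DMSO, 5.68 to 9.56 CPM in OCI-AML3 AC220 and 3.80 to 6.07 CPM in OCI-AML3 DMSO. The part of these shifts in the results was not tested. MV4-11 AC220 replicate 1 stood farthest from its group, with a chi-square per degree of freedom of 9.56 and 10.6 against the other libraries, where all replicate pairs ranged from 2.79 to 10.6. The labels do not say whether replicates were separate cultures, so the spread on which the p-values rest may be technical. In bulk RNA, fewer cells with a transcript and less transcript per cell cannot be told apart.

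In MV4-11, AC220 raised CD244, CD86, CLEC12A, IL3RA and CD33, while CD38 and CD47 did not pass the test. Thus 5 of the 7 members that passed the filter on low counts rose and 0 fell, where 31.5% of all 12392 genes tested rose, 26.9% fell and 58.3% were called in either direction by edgeR's quasi-likelihood test (Benjamini-Hochberg adjusted p under 0.05). The median log2 fold change was 0.72 over the 7 members and 0.07 over all genes tested. CD34, HAVCR2 and CD96 had too few counts to be tested. CLEC12A and CD86 entered the tests through MV4-11, since neither passed the filter when the OCI-AML3 libraries were taken alone, where 5 members were tested. The members were also chosen with earlier results of these data known, so the counts and the median above are a description only.

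**Figure D1:**
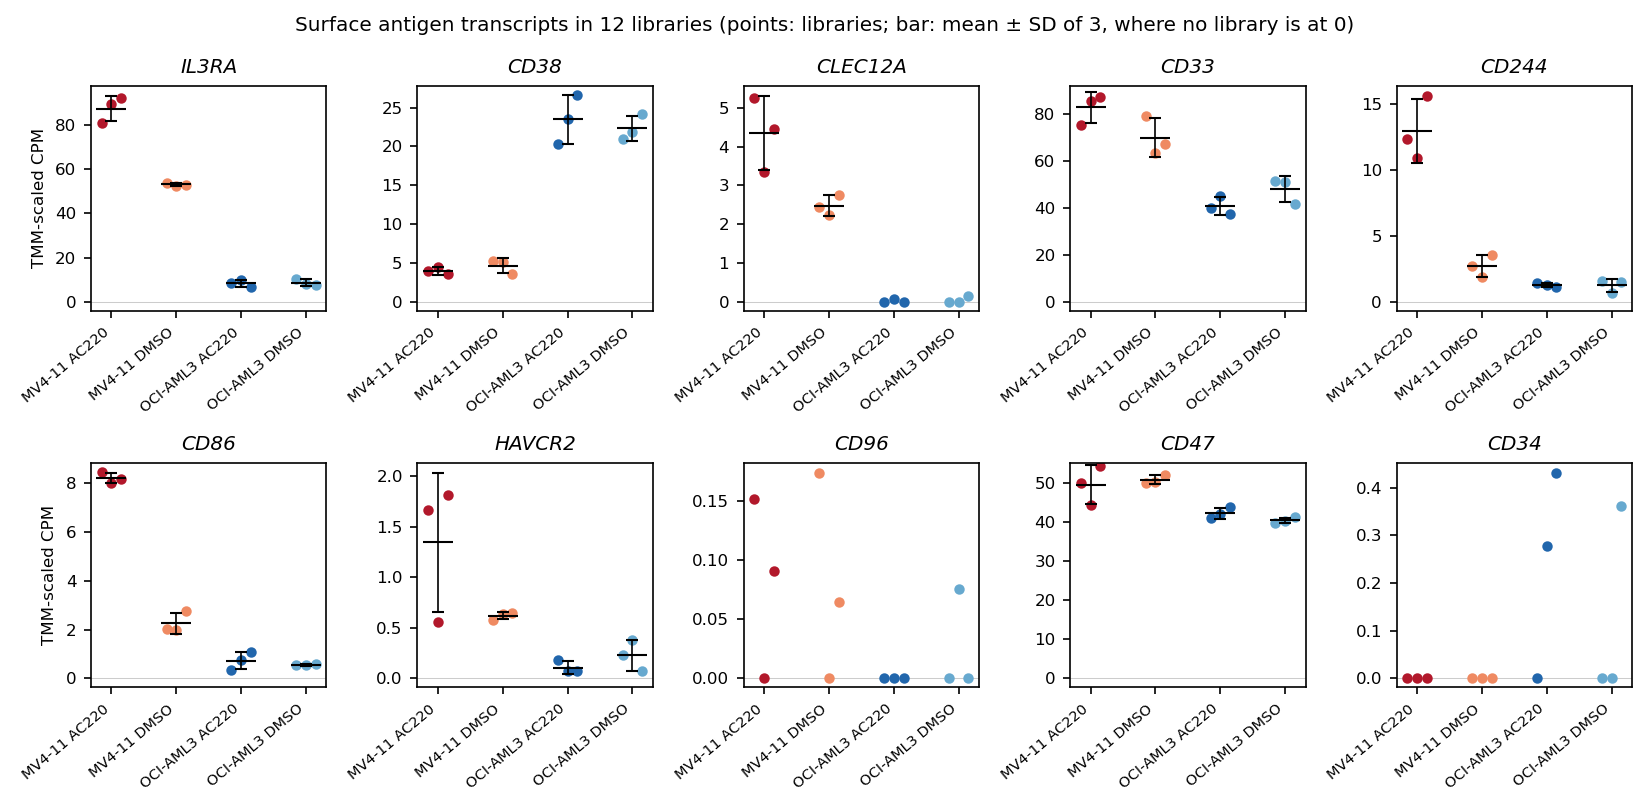
Level of each surface antigen transcript in TMM-scaled CPM (y axes, linear, each with its own scale) in the 12 libraries, by group. Points are libraries, and bars give the mean ± SD of 3 libraries where no library was at 0. IL3RA, CD86 and CD244 stand higher in all 3 MV4-11 AC220 libraries than in any other, CD38 is higher in OCI-AML3, and CD34 and CD96 stay below 0.5 CPM throughout.

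CD244, a receptor of the SLAM family whose ligand is CD48, changed most. It had 12.4, 10.9 and 15.6 CPM in MV4-11 AC220, against 2.72, 1.86 and 3.53 CPM in MV4-11 DMSO. Every AC220 library lay above every DMSO library, and the groups did not overlap, as was the case for 62.4% of all genes tested. This was a 4.77-fold rise, a log2 fold change of 2.26 (SE 0.235, adjusted p = 1.97e-09).

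CD86, the costimulatory ligand, followed. Its level was 8.43, 8.0 and 8.17 CPM in MV4-11 AC220, against 2.03, 1.99 and 2.76 CPM in MV4-11 DMSO. The AC220 libraries lay close together and well apart from the DMSO libraries. The rise was 3.63-fold, or 1.86 on the log2 scale (SE 0.247, adjusted p = 1.93e-07).

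IL3RA, the interleukin-3 receptor chain, was already among the most abundant members in this line. It had 80.8, 89.3 and 92.0 CPM in MV4-11 AC220, against 53.9, 52.5 and 53.0 CPM in MV4-11 DMSO. The groups did not overlap, and the DMSO libraries lay close together. The rise was 1.64-fold, or 0.72 on the log2 scale (SE 0.0985, adjusted p = 3.58e-07). IL3RA lies in the region shared by chromosomes X and Y, and how the authors counted reads with several positions is not given in the sources used here.

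The calls of the lectin receptors CLEC12A and CD33 were lost when single libraries were left out. CLEC12A had 5.24, 3.35 and 4.45 CPM in MV4-11 AC220, against 2.43, 2.24 and 2.76 CPM in MV4-11 DMSO, with no overlap (log2 fold change 0.81, SE 0.302, adjusted p = 0.0221). The adjusted p was 0.115 without AC220 replicate 1, 0.0651 without AC220 replicate 3, 0.0626 without DMSO replicate 1, 0.0763 without DMSO replicate 2 and 0.276 with limma on the deposited normalised values. CLEC12A-AS1 and CLEC1B overlap CLEC12A on the opposite strand, and the strand setting of the counting is not given in the sources used here.

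CD33 had 75.5, 85.8 and 87.5 CPM in MV4-11 AC220, against 79.3, 63.4 and 67.4 CPM in MV4-11 DMSO. The groups overlapped, since DMSO replicate 1 exceeded AC220 replicate 1. The rise was 1.18-fold, or 0.24 on the log2 scale (SE 0.0949, adjusted p = 0.0308). The adjusted p was 0.0881 without AC220 replicate 2, 0.243 without AC220 replicate 3, 0.180 without DMSO replicate 2, 0.111 without DMSO replicate 3 and 0.0802 when the 6 MV4-11 libraries were fitted alone.

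CD47, the phagocytosis checkpoint ligand, had 49.9, 44.4 and 54.2 CPM in MV4-11 AC220, against 49.98, 50.2 and 52.0 CPM in MV4-11 DMSO. The groups overlapped, the log2 fold change was -0.04 (95% interval -0.23 to 0.16) and the adjusted p was 0.739. CD38, the NAD-consuming ectoenzyme, had 4.02, 4.56 and 3.54 CPM in MV4-11 AC220, against 5.28, 5.19 and 3.53 CPM in MV4-11 DMSO. These groups overlapped too, with a log2 fold change of -0.21 (95% interval -0.65 to 0.23, adjusted p = 0.349).

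The remaining members were at or near the limit of detection. HAVCR2 had 22, 6 and 20 counts in MV4-11 AC220, against 10, 10 and 10 counts in MV4-11 DMSO, which is 1.67, 0.558 and 1.82 CPM against 0.580, 0.641 and 0.643 CPM. AC220 replicates 1 and 3 were high and replicate 2 was below all DMSO libraries, and without a filter on low counts the log2 fold change of 1.09 had an adjusted p of 0.115. HAVCR2 overlaps MED7 on the same strand and an antisense gene, so reads of these genes may not be separated. CD96 had 2, 0 and 1 counts in MV4-11 AC220, against 3, 0 and 1 counts in MV4-11 DMSO, and no library of either group exceeded 3 counts. CD34, the progenitor antigen, had no count in any of the 6 MV4-11 libraries, which allows a level of up to 0.279 CPM in the shallowest of them. Intervals and limits of this kind cover counting error only.

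In OCI-AML3, none of the 7 tested members was called by edgeR after AC220, where 3.95% of all genes tested were called (3.44% up and 0.508% down). The other tools (limma-voom, DESeq2, and limma on the authors' normalised values) also called 0 members, and 1 member, CD33, had an unadjusted p under 0.05. Of the 489 genes called, 426 were up and 63 down with TMM scaling, against 363 up and 126 down with median-ratio size factors and 93 up and 25 down with limma on the deposited values. The number called without 1 library ranged from 13, without OCI-AML3 DMSO replicate 1, to 1136, without MV4-11 AC220 replicate 1.

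CD33 had 39.9, 45.0 and 37.5 CPM in OCI-AML3 AC220, against 51.4, 51.0 and 41.5 CPM in OCI-AML3 DMSO. DMSO replicate 3 lay within the AC220 range, with a change of -0.23 on the log2 scale (SE 0.1003, unadjusted p = 0.0276, adjusted p = 0.177). Without DMSO replicate 3 it was -0.33 with an adjusted p of 0.0481.

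IL3RA had 8.66, 9.99 and 6.68 CPM in OCI-AML3 AC220, against 10.4, 8.28 and 7.51 CPM in OCI-AML3 DMSO. CD38 had 20.3, 23.5 and 26.6 CPM in OCI-AML3 AC220, against 21.0, 21.9 and 24.1 CPM in OCI-AML3 DMSO. CD47 had 40.9, 42.0 and 43.7 CPM in OCI-AML3 AC220, against 39.7, 40.3 and 41.1 CPM in OCI-AML3 DMSO. All 3 pairs of groups overlapped, where 23.9% of all genes tested did not, with log2 fold changes of -0.05 (adjusted p = 0.906) for IL3RA, 0.07 (adjusted p = 0.811) for CD38 and 0.06 (adjusted p = 0.728) for CD47.

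CD86 had 0.361, 0.763 and 1.08 CPM in OCI-AML3 AC220, against 0.544, 0.532 and 0.578 CPM in OCI-AML3 DMSO. CD244 had 1.44, 1.25 and 1.15 CPM in OCI-AML3 AC220, against 1.55, 0.684 and 1.52 CPM in OCI-AML3 DMSO. For both, an AC220 library fell within or below the DMSO range. The 95% intervals of the log2 fold change, -0.56 to 1.46 for CD86 and -0.81 to 0.85 for CD244, leave changes of moderate size undetectable at this depth.

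The untested members gave few counts in OCI-AML3. HAVCR2 had 2, 1 and 1 counts in OCI-AML3 AC220, against 3, 5 and 1 counts in OCI-AML3 DMSO. CD34 had 0, 4 and 6 counts in OCI-AML3 AC220, against 0, 0 and 5 counts in OCI-AML3 DMSO. CLEC12A had 1 count with AC220 and 2 with DMSO over 3 libraries each, and CD96 had 0 with AC220 and 1 with DMSO. None of these permits a comparison.

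**Figure D2:**
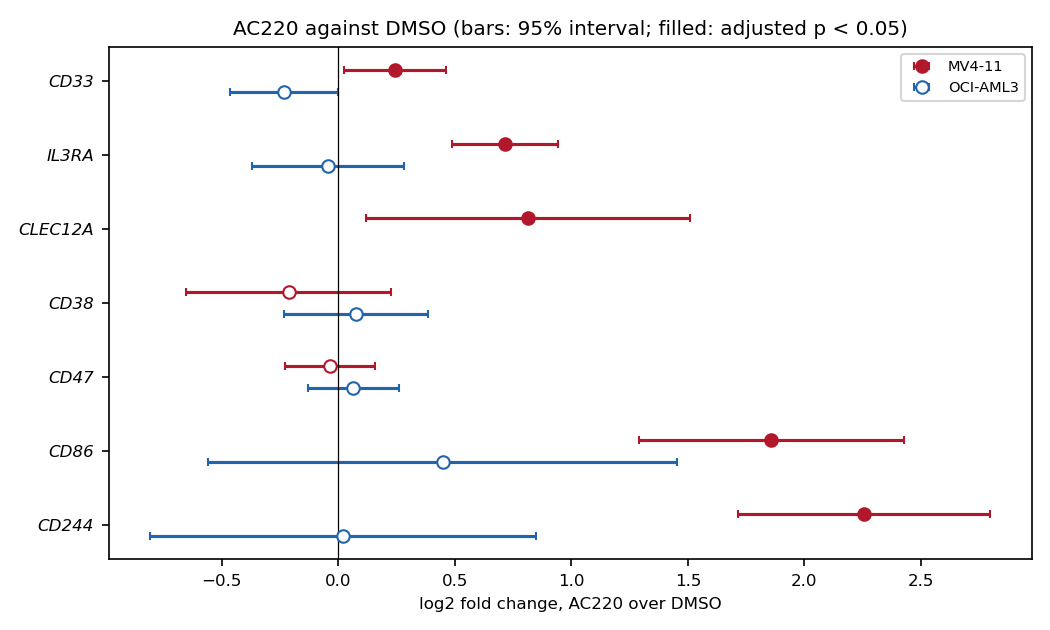
Log2 fold change of AC220 over DMSO (x axis) for the 7 tested members in MV4-11 (red) and OCI-AML3 (blue), without CLEC12A in OCI-AML3, which had 3 counts in all. Bars are 95% intervals built from the SE of edgeR's fit and filled points have an adjusted p under 0.05. CD244 at 2.26, CD86 at 1.86, CLEC12A at 0.81, IL3RA at 0.72 and CD33 at 0.24 are filled in MV4-11, and no point is filled in OCI-AML3.

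The difference between the AC220 effects of both lines was tested directly. It was called for 4 of the 7 members, all toward a higher effect in MV4-11, where 23.0% of all genes tested differed in that direction, 23.7% in the other and 46.7% in either. CLEC12A and CD86 passed the filter on low counts through MV4-11, so this count is a description only. The difference in log2 fold change, MV4-11 minus OCI-AML3, was 2.23 for CD244 (SE 0.434, adjusted p = 9.72e-05) and 0.76 for IL3RA (SE 0.172, adjusted p = 0.000579). For CD33, whose estimates had opposite signs in the lines, the difference was 0.47 (SE 0.138, adjusted p = 0.00578) and was called in all alternatives. For CD86 it was 1.41 (SE 0.518, adjusted p = 0.0263), and the adjusted p was 0.0719 without OCI-AML3 AC220 replicate 1, 0.0515 without OCI-AML3 DMSO replicate 1 and 0.0602 without OCI-AML3 DMSO replicate 3. The effects of AC220 on CD38 (difference -0.29, 95% interval -0.82 to 0.25), CD47 (difference -0.10, 95% interval -0.37 to 0.18) and CLEC12A were not shown to differ.

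The lines were then compared under each treatment. MV4-11 was above OCI-AML3 in 6 of the 7 tested members and below it in 1, CD38, under AC220 as well as under DMSO. The 6 include CLEC12A and CD86, which passed the filter through MV4-11, so this count is a description only. Of all genes tested, 36.7% were higher in MV4-11 and 39.5% lower under AC220 (76.2% called), and 32.1% were higher and 33.4% lower under DMSO (65.5% called). Lines differ in origin and genotype, and the comparison does not separate these.

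IL3RA averaged 87.4 ± 5.84 CPM in MV4-11 AC220 and 8.44 ± 1.67 CPM in OCI-AML3 AC220, a 10.3-fold difference (log2 3.37, SE 0.120, adjusted p = 1.35e-20). Under DMSO it averaged 53.1 ± 0.734 CPM in MV4-11 and 8.73 ± 1.501 CPM in OCI-AML3, 6.09-fold apart (all mean ± SD, n = 3). The order of its levels was MV4-11 AC220, MV4-11 DMSO and then both OCI-AML3 groups, which did not differ beyond their spread. CD33 averaged 82.9 ± 6.51 CPM in MV4-11 AC220 and 40.8 ± 3.82 CPM in OCI-AML3 AC220, and 70.0 ± 8.29 CPM in MV4-11 DMSO and 48.0 ± 5.60 CPM in OCI-AML3 DMSO. Its log2 difference between the lines was 1.02 (adjusted p = 2.72e-10) under AC220 and 0.55 (adjusted p = 1.63e-05) under DMSO.

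CD38 had the reverse order, with both OCI-AML3 groups above both MV4-11 groups and no separation by treatment. It averaged 4.04 ± 0.510 CPM in MV4-11 AC220 and 23.5 ± 3.15 CPM in OCI-AML3 AC220, a log2 difference of -2.54 (SE 0.165, adjusted p = 2.59e-14). Under DMSO it averaged 4.67 ± 0.983 CPM in MV4-11 and 22.3 ± 1.63 CPM in OCI-AML3, a log2 difference of -2.25 (SE 0.154, adjusted p = 1.48e-13). No MV4-11 library reached any OCI-AML3 library.

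CD47 differed little between the lines. It averaged 49.5 ± 4.92 CPM in MV4-11 AC220 and 42.2 ± 1.39 CPM in OCI-AML3 AC220, a log2 difference of 0.23 (adjusted p = 0.0163). That call was lost without MV4-11 AC220 replicate 3 (adjusted p = 0.144) or OCI-AML3 AC220 replicate 1 (adjusted p = 0.0554). Under DMSO CD47 averaged 50.7 ± 1.10 CPM in MV4-11 and 40.4 ± 0.707 CPM in OCI-AML3, a log2 difference of 0.33 (adjusted p = 0.00107).

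CD86 and CD244 showed a wider gap between the lines under AC220 than under DMSO, which is the difference of AC220 effects given above. CD86 averaged 8.20 ± 0.215 CPM in MV4-11 AC220 and 0.734 ± 0.359 CPM in OCI-AML3 AC220, 10.7-fold apart, and 2.26 ± 0.436 CPM in MV4-11 DMSO and 0.551 ± 0.0240 CPM in OCI-AML3 DMSO, 4.04-fold apart. CD244 averaged 13.0 ± 2.42 CPM in MV4-11 AC220 and 1.28 ± 0.149 CPM in OCI-AML3 AC220, 10.1-fold apart, and 2.71 ± 0.838 CPM in MV4-11 DMSO and 1.25 ± 0.492 CPM in OCI-AML3 DMSO, 2.15-fold apart. All 4 differences passed the test, the largest adjusted p being 0.00245 for CD244 under DMSO. Those of CD86 are a description only, since CD86 passed the filter on low counts through MV4-11, the line where it was higher.

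CLEC12A was detected in every MV4-11 library and was under the limit of detection in every OCI-AML3 library. It had 154 counts in MV4-11 AC220 and 1 count in OCI-AML3 AC220, a depth-scaled ratio of 174 (95% counting interval 30.7 to 6907). Under DMSO it had 120 counts in MV4-11 and 2 counts in OCI-AML3, a ratio of 49.4 (95% counting interval 13.4 to 413). HAVCR2 had 48 counts in MV4-11 AC220 and 4 in OCI-AML3 AC220, and in a fit without a filter the adjusted p of this difference was 1.505e-05. Under DMSO HAVCR2 had 30 counts in MV4-11 and 9 in OCI-AML3, with an adjusted p of 0.0929. CD34 ran the other way, with 0 counts in MV4-11 AC220 and 10 in OCI-AML3 AC220, all of them in replicates 2 and 3 (adjusted p = 0.0232 in that fit), and 0 in MV4-11 DMSO and 5 in OCI-AML3 DMSO, all in replicate 3 (adjusted p = 0.0759). An antisense gene overlaps CD34, and its reads may be included.

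**Figure D3:**
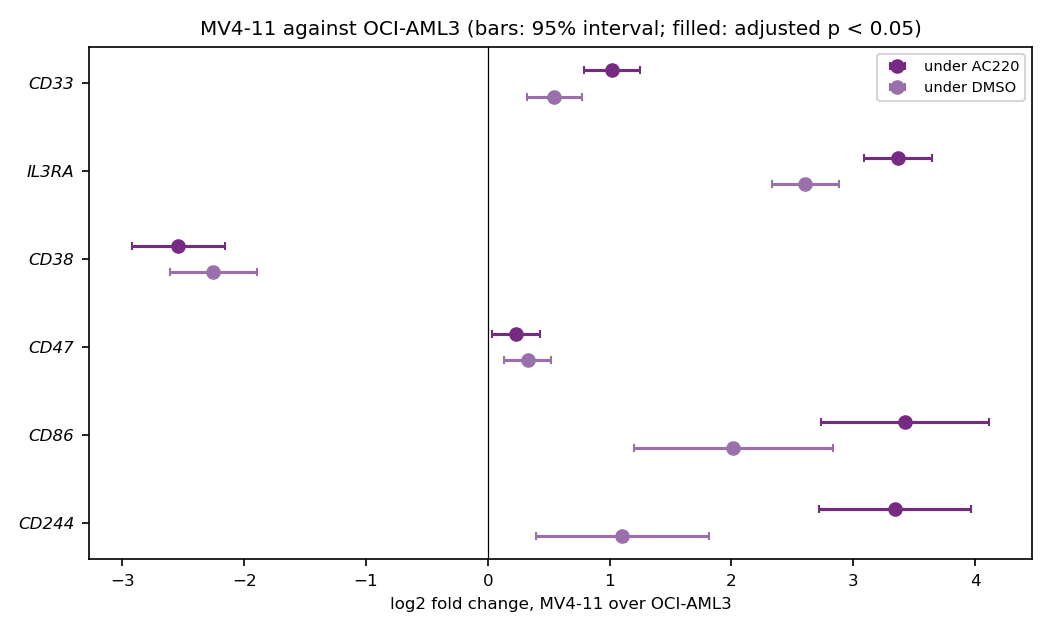
Log2 fold change of MV4-11 over OCI-AML3 (x axis) under AC220 (dark) and under DMSO (light) for 6 tested members. Bars are 95% intervals built from the SE of edgeR's fit. CLEC12A is left out because OCI-AML3 had 3 counts in all. CD86 passed the filter on low counts through MV4-11, so its points are a description only. CD38 alone lies left of 0, at -2.54 and -2.25, and the intervals of CD244 under AC220 and DMSO are centred at 3.34 and 1.11.

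Each tested member was set beside the genes whose log2 CPM followed it most closely over the 12 libraries, with Pearson's r as a measure of likeness and no test, since the libraries fall into clusters by line and treatment and share their depth. ZDHHC24 (r = 0.991) and RNH1 (r = 0.989) were nearest to CD33. SLC22A18AS (r = 0.998) and P2RX1 (r = 0.997) were nearest to IL3RA, and ZNF585A (r = 0.996) and APOL4 (r = 0.995) to CLEC12A. RGS2 (r = 0.997) and PON2 (r = 0.994) were nearest to CD38, and C11orf97 (r = 0.971) and MTRF1L (r = 0.954) to CD47. ANKRD28 (r = 0.994) and JMJD1C (r = 0.992) were nearest to CD86, and ZNF34 (r = 0.986) and PDE4DIP (r = 0.982) to CD244. PDE4DIP averaged 43.5, 8.05, 3.05 and 2.49 CPM in MV4-11 AC220, MV4-11 DMSO, OCI-AML3 AC220 and OCI-AML3 DMSO. In OCI-AML3 AC220 and OCI-AML3 DMSO, SLC22A18AS averaged 0.106 and 0.152 CPM, APOL4 0.0694 and 0.0482 CPM and C11orf97 0.0540 and 0.0241 CPM. These means lie under the limit of detection, so the r values of these genes rest largely on the contrast between the lines.

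Genes whose products bind the antigens or act directly downstream of them, with some relatives, were counted from a list. In MV4-11, 5 of its 16 tested genes rose and 7 fell with AC220, where 31.5% of all genes tested rose and 26.9% fell, with a median log2 fold change of -0.07 against 0.07 over all genes tested. SIRPG passed the filter on low counts through MV4-11 AC220, where it was high, so these counts are a description only. The genes of the list are described beside the antigen to which each belongs.

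Among the extracellular binders, PVR and SIRPA fell and SIRPG rose, and NECTIN2, a relative of PVR, fell too. PVR, the ligand of CD96, had 6.99, 10.9 and 11.2 CPM in MV4-11 AC220, against 33.8, 34.1 and 34.2 CPM in MV4-11 DMSO. No library overlapped, with a change of -1.83 on the log2 scale (SE 0.126, adjusted p = 3.23e-13). NECTIN2, a related nectin, averaged 19.7 ± 1.26 CPM in MV4-11 AC220 and 46.5 ± 0.148 CPM in MV4-11 DMSO (log2 fold change -1.23, adjusted p = 2.38e-11). SIRPA, the receptor of CD47, averaged 51.3 ± 2.30 CPM in MV4-11 AC220 and 83.2 ± 1.47 CPM in MV4-11 DMSO (log2 fold change -0.70, adjusted p = 3.99e-09). SIRPG, a second CD47 receptor, rose instead, with 24, 39 and 20 counts in MV4-11 AC220 against 16, 13 and 7 counts in MV4-11 DMSO (log2 fold change 1.68, SE 0.420, adjusted p = 0.00108).

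CD48, the ligand of CD244, had 4, 0 and 2 counts in MV4-11 AC220, against 0, 3 and 1 counts in MV4-11 DMSO, and none in OCI-AML3. CTLA4, the inhibitory receptor for CD86, and SH2D1A, the adaptor of CD244, had no count in any library. Of the ligands of HAVCR2, HMGB1 fell (3095 ± 85.2 CPM in MV4-11 AC220 and 5345 ± 80.5 CPM in MV4-11 DMSO, log2 fold change -0.79, adjusted p = 7.80e-13). LGALS9, also a ligand of HAVCR2, had a log2 fold change of 0.26 (adjusted p = 0.0137). That call was lost without MV4-11 AC220 replicate 2 (adjusted p = 0.0979), without AC220 replicate 3 (0.161), without DMSO replicate 2 (0.0670) and in MV4-11 alone (0.0622).

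Downstream of IL3RA, the kinase JAK2 rose, with 22.0, 22.2 and 25.1 CPM in MV4-11 AC220, against 12.3, 11.3 and 10.1 CPM in MV4-11 DMSO (log2 fold change 1.04, SE 0.133, adjusted p = 1.01e-07). CSF2RB, the signalling chain that pairs with IL3RA, averaged 2.87 ± 0.704 CPM in MV4-11 AC220 and 2.42 ± 0.305 CPM in MV4-11 DMSO and did not pass the test (adjusted p = 0.440). Of the phosphatases recruited by inhibitory tails such as that of CD33, PTPN11 fell (log2 fold change -0.67, adjusted p = 3.90e-09) and PTPN6 had a log2 fold change of -0.17 (adjusted p = 0.0806). The kinase SYK rose, averaging 113 ± 8.18 CPM in MV4-11 AC220 and 74.8 ± 0.764 CPM in MV4-11 DMSO (log2 fold change 0.60, adjusted p = 1.04e-07). NT5E, an ectoenzyme that acts with CD38 in adenosine production, had 1 count in MV4-11 AC220 and 29 in MV4-11 DMSO, a depth-scaled ratio of 0.0478 (95% counting interval 0.00117 to 0.288).

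**Figure D4:**
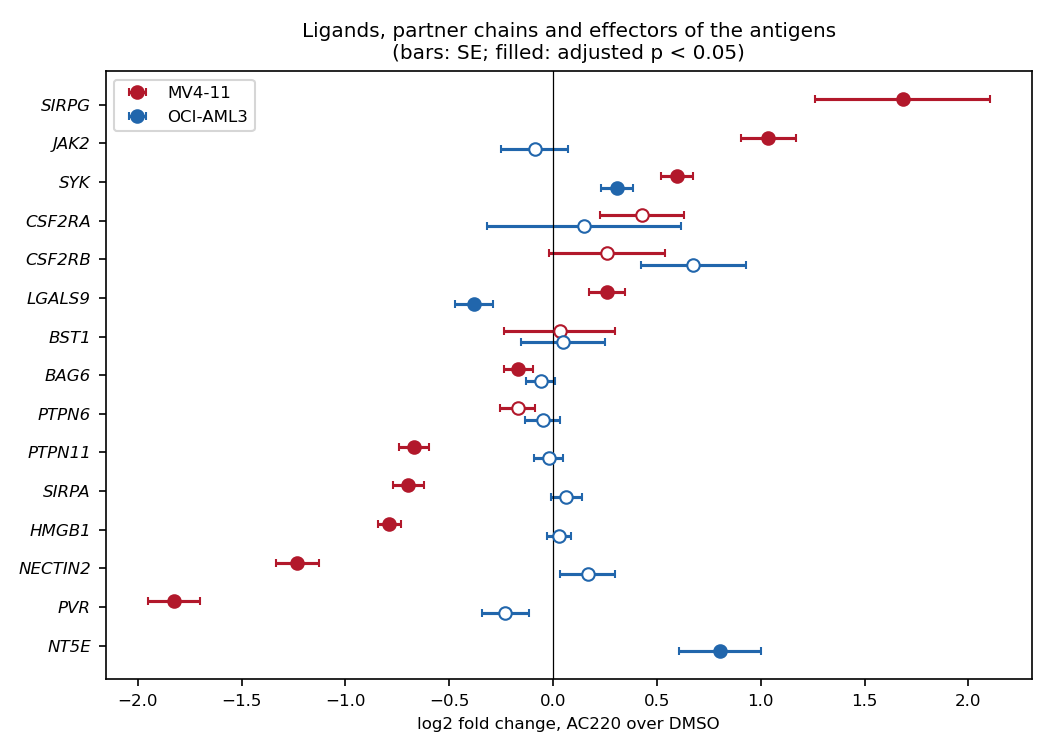
Log2 fold change of AC220 over DMSO (x axis) in MV4-11 (red) and OCI-AML3 (blue). Genes are the tested ligands, partner chains and effectors of the antigens, with some relatives. SE of edgeR's fit is drawn as bars, and filled points have an adjusted p under 0.05. NT5E in MV4-11 and SIRPG in OCI-AML3 are left out because a group had at most 5 counts, and 1 gene of the list is not shown. JAK2 at 1.04 and PVR at -1.83 in MV4-11 lie far from their OCI-AML3 points, which are not filled.

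In OCI-AML3, 2 of these 16 genes rose and 1 fell with AC220, where 3.95% of all genes tested were called. NT5E averaged 14.3 ± 3.94 CPM in OCI-AML3 AC220 and 8.23 ± 0.873 CPM in OCI-AML3 DMSO (log2 fold change 0.80, adjusted p = 0.0215). SYK had a log2 fold change of 0.31 (adjusted p = 0.0252) and LGALS9 one of -0.38 (adjusted p = 0.0255). With limma on the deposited values, 0 of the 3 were called, and likewise 0 without OCI-AML3 AC220 replicate 3, DMSO replicate 1 or DMSO replicate 2. Without AC220 replicate 2 only 1, NT5E, was called. The difference between the lines' AC220 effects was called for 10 of the 16 genes, 4 toward MV4-11 and 6 toward OCI-AML3, among them PVR (-1.60, adjusted p = 7.35e-09), NECTIN2 (-1.40, adjusted p = 6.89e-08), HMGB1 (-0.82, adjusted p = 1.18e-09), SIRPA (-0.76, adjusted p = 7.80e-07), PTPN11 (-0.65, adjusted p = 4.56e-06) and JAK2 (1.12, adjusted p = 5.69e-05). Of all genes tested, 46.7% were called for this difference. SIRPG passed the filter on low counts through MV4-11 and NT5E through OCI-AML3, so this count is a description only.

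Between the lines, 8 of the 16 genes were higher and 7 lower in MV4-11 under AC220, and 9 were higher and 2 lower under DMSO, where 76.2% and 65.5% of all genes tested were called under AC220 and DMSO. SIRPG passed the filter on low counts through MV4-11 and NT5E through OCI-AML3, so these counts are a description only. CSF2RA averaged 15.4 ± 2.69 CPM in MV4-11 AC220 and 0.765 ± 0.521 CPM in OCI-AML3 AC220, and 11.5 ± 1.11 CPM in MV4-11 DMSO and 0.724 ± 0.414 CPM in OCI-AML3 DMSO. It encodes another alpha chain that pairs with CSF2RB, and it was thus higher in the line in which IL3RA was higher. BST1, a relative of CD38 with the same enzymatic activity, averaged 2.70 ± 0.989 CPM in MV4-11 AC220 and 8.82 ± 2.15 CPM in OCI-AML3 AC220 (log2 difference -1.74, adjusted p = 1.55e-07), the same direction as CD38.

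Another list held further surface proteins studied as targets in myeloid leukaemia. With AC220 in MV4-11, 14 of its 27 tested genes rose and 6 fell, where 31.5% of all genes tested rose and 26.9% fell, with a median log2 fold change of 0.39 against 0.07 over all genes, and 0 of 27 were called in OCI-AML3 by edgeR, where 2 had an unadjusted p under 0.05 and DESeq2 and limma on the deposited values called 1 each. TNFRSF8 (54 counts in MV4-11 AC220 and 3 in MV4-11 DMSO) passed the filter on low counts through the group where it was high. So did CD9 (25 counts in MV4-11 AC220 and 124 in MV4-11 DMSO), and the numbers called are a description only. The inhibitory leukocyte receptors LILRB2 and LILRB4 rose. LILRB2 had 8.05, 10.0 and 11.9 CPM in MV4-11 AC220, against 0.986, 1.41 and 0.964 CPM in MV4-11 DMSO (log2 fold change 3.15, adjusted p = 7.95e-09). LILRB4 averaged 211 ± 9.23 CPM in MV4-11 AC220 and 99.1 ± 1.62 CPM in MV4-11 DMSO (log2 fold change 1.09, adjusted p = 4.57e-14).

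CD36, CD52, CD70 and CD300LF rose too. CD36, a fatty acid and lipoprotein receptor, averaged 78.6 ± 7.87 CPM in MV4-11 AC220 and 11.8 ± 2.04 CPM in MV4-11 DMSO (log2 fold change 2.74, adjusted p = 4.05e-19). CD52, the antigen of alemtuzumab, averaged 48.6 ± 6.68 CPM in MV4-11 AC220 and 10.8 ± 1.02 CPM in MV4-11 DMSO (log2 fold change 2.17, adjusted p = 4.59e-13), and it had no count in any OCI-AML3 library. CD70, the ligand of CD27, had a log2 fold change of 0.76 (adjusted p = 2.88e-09) and the myeloid receptor CD300LF one of 0.87 (adjusted p = 9.41e-09).

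Among the genes that fell, CD276 (B7-H3) averaged 1.88 ± 0.498 CPM in MV4-11 AC220 and 8.34 ± 1.20 CPM in MV4-11 DMSO (log2 fold change -2.16, adjusted p = 6.48e-11). The tetraspanin CD9 had a log2 fold change of -1.85 (adjusted p = 0.00133) and endoglin, ENG, one of -0.41 (adjusted p = 0.00299). The chemokine receptor CCR1 had one of -0.24 (adjusted p = 0.00572). SIGLEC9 and SIGLEC7, lectins of the same family as CD33, had log2 fold changes of -1.90 (adjusted p = 0.00535) and -0.73 (adjusted p = 0.0310), opposite in sign to CD33. SIGLEC9 had only 9 counts in MV4-11 AC220, a mean of 0.259 CPM at the limit of detection, against 48 counts in MV4-11 DMSO. The call of SIGLEC7 was lost without MV4-11 AC220 replicate 1 (adjusted p = 0.0648), without AC220 replicate 2 (0.105), without DMSO replicate 1 (0.179) and with limma-voom (0.0894).

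Between the lines, 20 of these 27 genes were higher and 6 lower in MV4-11 under AC220, where 36.7% of all genes tested were higher and 39.5% lower. Under DMSO 16 were higher and 7 lower, where 32.1% of all genes were higher and 33.4% lower. Genes such as CD52, IL2RA and TNFRSF8 passed the filter on low counts through MV4-11, so these counts are a description only. IL1RAP, a co-receptor of the interleukin-1 family, averaged 38.2 ± 1.43 CPM in MV4-11 AC220 and 2.80 ± 0.366 CPM in OCI-AML3 AC220, and 42.8 ± 4.02 CPM in MV4-11 DMSO and 2.21 ± 0.206 CPM in OCI-AML3 DMSO. CD44, a hyaluronan receptor, had the reverse order, with 114 ± 6.60 CPM in MV4-11 AC220 and 331 ± 3.56 CPM in OCI-AML3 AC220, and 90.2 ± 3.46 CPM in MV4-11 DMSO and 325 ± 9.22 CPM in OCI-AML3 DMSO. The tetraspanin CD82 was higher in MV4-11 under AC220 (log2 difference 4.28, adjusted p = 4.78e-21), and the peptidase DPP4 was lower (log2 difference -3.47, adjusted p = 7.40e-17).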

How the data were processed

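Per the labels' protocols, total RNA of 12 libraries (3 per group) was DNase-treated and sequenced from the 3′ ends of transcripts, so a count does not grow with transcript length and transcripts with another end escape. Named in the submitters' processing notes are the build hg19, limma 3.42.2, R 3.6.1, featureCounts, Subread 2.0.0, HISAT2 2.0.4, cutadapt 1.9.1, FastQC 0.11.6 and bcl2fastq 2.17.1.14. Annotation, strand setting and treatment of reads with several positions are not given in the sources used here. The authors deposited raw counts for each gene symbol and normalised log2 values of 11075 genes. Those log2 values share 1 distribution across libraries and served as an alternative only. A row with no symbol took 0.00343% to 0.00503% of counts and was left out, and 13 rows whose symbol had become a date are not named.

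Counts were filtered with filterByExpr, scaled by TMM and tested with edgeR 4.0.16 (R 4.3.3, quasi-likelihood F test, 1 mean per group, 8 residual degrees of freedom) and adjusted after Benjamini-Hochberg over 12392 genes, with a threshold of 0.05. The common biological coefficient of variation was 8.28%. SE is the absolute log2 fold change divided by the square root of F. Fitted 95% intervals are the log2 fold change ± SE times the t quantile at 8 degrees of freedom. edgeR's test uses more degrees of freedom, so these intervals are wider than its p-values imply. Where a group had 1 to 3 counts, ratios carry 95% intervals for counting error. The alternatives tried were no filter, at least 50 counts in each library of a group, median-ratio size factors, DESeq2 1.42.0, limma-voom and limma 3.58.1 on the deposited values, a replicate block, the compared libraries alone, and leaving out each library. The members and lists were chosen with earlier results of these data known. All 10 members are named. From the other lists the rule took, per comparison, up to 6 called genes in each direction with the smallest adjusted p and any direct binder of a member, and per member the 2 genes of highest r. A called gene of the partner list is not reported here. The text prints only some of the direct binders. For the comparisons between lines and the difference of AC220 effects, it also prints only some of the called genes. Promoters came from RefSeq (GRCh38.p14) and overlapping genes from GENCODE; neither build is hg19, so only the promoter coordinates are given. The procedure was tested on simulated data.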

Additional observations from a re-analysis of the deposited data

Results flagged for a closer look

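For 4 of the 7 tested members, where 46.7% of all genes tested were called, the AC220 effect differed between the lines in a direct test with edgeR, with the difference given as MV4-11 minus OCI-AML3 on the log2 scale. It was 2.23 for CD244, 1.41 for CD86, 0.76 for IL3RA and 0.47 for CD33. CD86 and CLEC12A, which was not called, passed the filter on low counts through MV4-11, so the number called is a description only. CD244, CD86 and IL3RA were higher in all 3 MV4-11 AC220 libraries than in all 3 MV4-11 DMSO libraries, whereas the OCI-AML3 groups overlapped for all 3. Over all genes tested, 62.4% did not overlap in MV4-11 and 23.9% in OCI-AML3. The summed level of 14 myeloid markers was also higher in MV4-11 AC220 (1116 to 1236 CPM) than in MV4-11 DMSO (864 to 889 CPM). Of these markers 9 rose and 3 fell, where 31.5% of all genes tested rose and 26.9% fell. The part of the markers in these differences was not tested.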

How the results depend on the processing

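Of 685 values of members under alternatives, 658 kept direction and side of the threshold, 15 lost their call, 1 gained one and 11 changed sign. Leaving out 1 library gave 3 to 6 members and 6620 to 7391 genes called for AC220 in MV4-11, 0 to 1 members and 13 to 1136 genes in OCI-AML3, 3 to 5 members and 5308 to 6130 genes for the difference of effects, 6 to 8 members and 9150 to 9580 genes between lines under AC220, and 7 to 8 members and 7563 to 8424 genes under DMSO. HAVCR2 passed the filter in some of these fits, so up to 8 members were tested. For OCI-AML3, 836 genes were called without a filter, 813 with DESeq2 and 118 with limma on the deposited values, against 489. The cause was not tested. All changes of sign were in values that had not passed the test. CD244 in OCI-AML3 was -0.0076 with median-ratio size factors and -0.0054 with DESeq2. Over the fits that left out 1 library, the log2 change ran from -0.15 to 0.036 for CD47 in MV4-11, and in OCI-AML3 from -0.27 to 0.20 for CD244, -0.024 to 0.16 for CD38, -0.20 to 0.11 for IL3RA and -2.68 to 1.90 for CLEC12A. The difference of effects for CLEC12A ran from -1.09 to 3.49.

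Replicate numbers did not pair the libraries in MV4-11, where same-numbered libraries of AC220 and DMSO correlated at -0.120 to -0.0803. In OCI-AML3 same-numbered libraries correlated weakly, at 0.0494 to 0.180. Each AC220 library there correlated best with the DMSO library of its own number, so pairing in OCI-AML3 stays possible. With the replicate block 7080, 381, 5626, 9346 and 8008 genes and 5, 0, 4, 7 and 7 members were called in the 5 comparisons, in the order above, and no member's call changed. Depth limits CD34, CD96, HAVCR2 and, in OCI-AML3, CLEC12A, CD86 and CD244.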

Other observations

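For 4 genes of the 2 further lists, chosen after their values were seen, the difference between MV4-11 and OCI-AML3 had opposite signs under AC220 and DMSO, and edgeR called each of these differences. CD36 had a log2 difference of 0.89 (adjusted p = 1.87e-09) under AC220 and -1.78 (adjusted p = 1.06e-14) under DMSO. VSIR, the checkpoint protein VISTA, had 0.43 (adjusted p = 0.00102) under AC220 and -0.42 (adjusted p = 0.00141) under DMSO. SIRPA had -0.39 (adjusted p = 4.33e-05) under AC220 and 0.37 (adjusted p = 6.18e-05) under DMSO. PVR had -1.32 (adjusted p = 2.56e-10) under AC220 and 0.27 (adjusted p = 0.0328) under DMSO. None of the 7 tested members changed sign in this way.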
